A study of Rattus norvegicus with 6 samples.

Results

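Bulk RNA-seq of the pulmonary vein (PV) was examined for genes that mark endothelial identity, the program that distinguishes the cells lining blood vessels from the other cells of the vessel wall. The members were chosen by symbol from a list of 10 such genes, and 9 of the 10 matched a row among the 17833 genes of the deposited expression table. These are Pecam1, Cdh5, Cldn5, Esam, Emcn, Egfl7, Erg, Sox17 and Sox18. Robo4x matched no symbol. A total of 15150 genes were tested, and all 9 matched members were among them. The libraries came from 3 wild-type SD rats whose PVs were banded on both sides (BPVB) and 3 wild-type SD rats with a sham operation, all operated at postnatal day 1 and sampled at postnatal day 21. Both groups underwent anesthesia by hypothermia and opening of the thorax, and only the BPVB group had the PVs constricted. The tissue was the PV of the right upper lobe taken whole, so each value averages the endothelium with smooth muscle, fibroblasts and the atrial muscle sleeve.

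Endothelial cells form a single sheet on the inner surface of a vessel and are held together by adherens and tight junctions. The ETS factor ERG and the SoxF factors SOX7, SOX17 and SOX18 maintain the transcription of endothelial genes, and VE-cadherin, the product of Cdh5, is the central adhesion molecule of the adherens junction. In PV stenosis this lining borders the thickened intima, so the comparison asks how the expression of the endothelial program differed between banded and sham veins.

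Expression of the endothelial members was on balance lower in the BPVB group, with log2 fold changes from -0.55 to 0.02. Sox18, Emcn and Cdh5 fell the most, by 31.9%, 30.3% and 21.1% in mean FPKM (fragments counted per unit of gene length and of library size). Pecam1 and Erg fell by 11.1% each. Cldn5, Egfl7, Esam and Sox17 did not pass the test. A total of 5 of 9 members were lower with an adjusted p under 0.05 (limma on log2(FPKM + 0.5), two-sided, Benjamini-Hochberg adjustment over all tested genes), where 14.3% of all tested genes were lower by the same rule. Among genes whose mean FPKM was 10 or more, as it was for all members, this share was 22.8%. None of the members was higher, at an adjusted p, at an unadjusted p under 0.05 (0 higher and 5 lower) or with limma-voom on the recovered fragments (0 higher and 5 lower). The shares of all tested genes above hold for the adjusted p of limma, and none is given for the unadjusted p or limma-voom. Differentially expressed genes (DEGs) are here the called genes whose log2 fold change also exceeds 1 in size. These are the study's cut-offs, applied to the limma fit of log2(FPKM + 0.5) in place of the study's own model of read counts, so the genes called need not be the same. By this rule 0 of 9 members were DEGs, and 3.27% of all tested genes were. No member had an absolute log2 fold change above 1 at an unadjusted p under 0.05 or with limma-voom either. The median log2 fold change of the members was -0.17, beside 0.02 over all tested genes. Less RNA per endothelial cell and fewer endothelial cells cannot be told apart in bulk tissue.

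The members were well covered. Between 1197 and 26059 fragments lay behind each member's value in a library, with library totals between 23439506 and 29725808. The mean FPKM of the members over the 6 libraries ranged from 14.2 to 269, and the lowest of them was above 69.3% of the tested genes. The coefficient of variation within a group ranged from 0.234% to 6.24%, and that of counting alone from 0.636% to 2.85%.

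**Figure D1:**
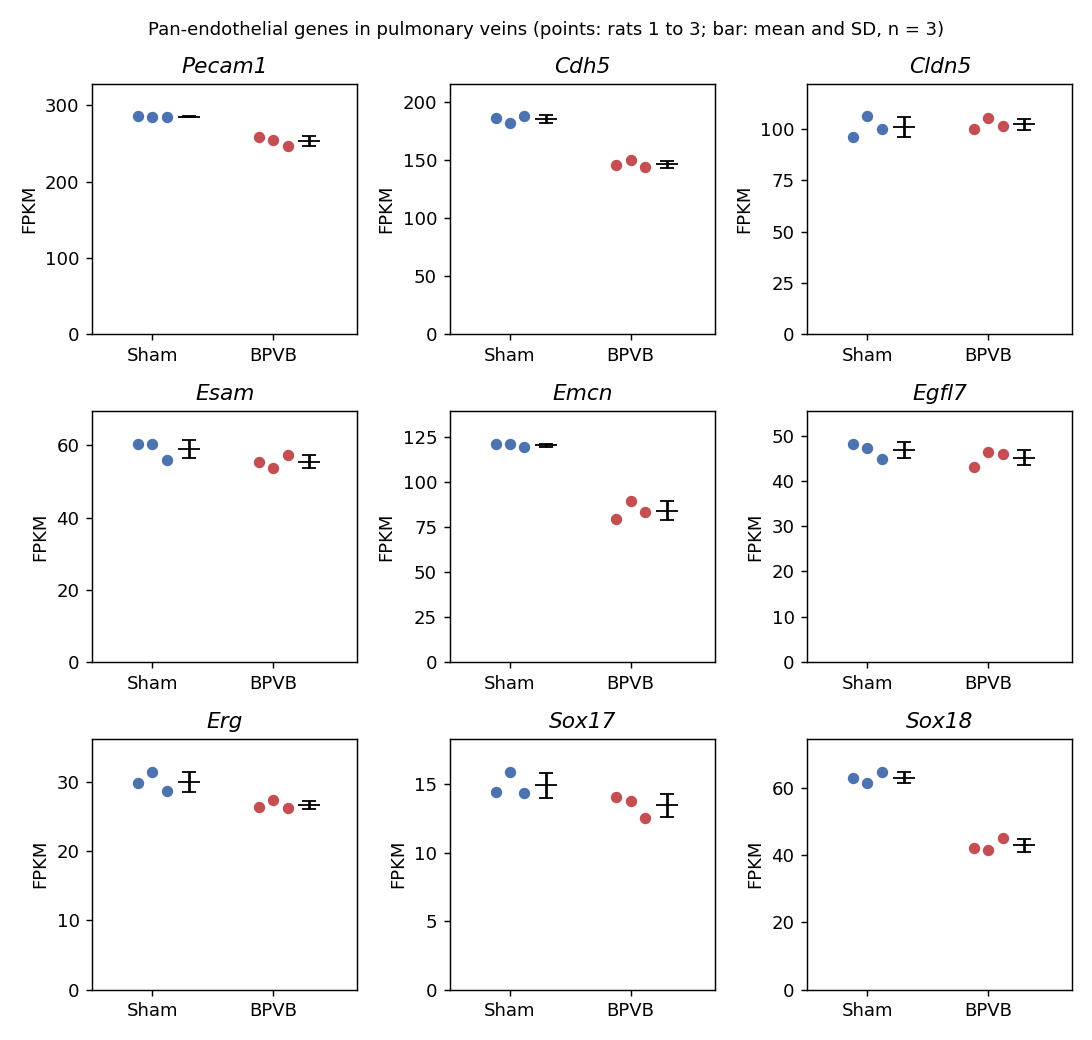
FPKM (vertical axes, from 0) of the 9 endothelial members in each of the 3 Sham and 3 BPVB libraries, with the mean and SD of each group beside the points. The groups are separate for Pecam1, Cdh5, Emcn, Erg, Sox17 and Sox18 and overlap for Cldn5, Esam and Egfl7.

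Start-site sequences were available for the members Cldn5, Erg, Emcn and Egfl7 (RefSeq, build GRCr8), and 3 of them are shown because they span the range of the changes. Emcn fell strongly, Erg fell slightly and encodes an ETS factor itself, and Cldn5 lay near no change. Each sequence is the 250 bases before the start site, 5′ to 3′ on the strand of the gene, with capitals marking the ETS core motif (AGGAAG or CGGAAG, or its reverse complement).
Emcn (chr2:228564289-228564538, plus strand): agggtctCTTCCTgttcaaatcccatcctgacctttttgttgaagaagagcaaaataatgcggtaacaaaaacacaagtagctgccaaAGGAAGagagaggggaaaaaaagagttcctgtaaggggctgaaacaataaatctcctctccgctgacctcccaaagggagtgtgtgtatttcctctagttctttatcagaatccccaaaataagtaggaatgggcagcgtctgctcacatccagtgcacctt
Erg (chr11:48251567-48251816, minus strand): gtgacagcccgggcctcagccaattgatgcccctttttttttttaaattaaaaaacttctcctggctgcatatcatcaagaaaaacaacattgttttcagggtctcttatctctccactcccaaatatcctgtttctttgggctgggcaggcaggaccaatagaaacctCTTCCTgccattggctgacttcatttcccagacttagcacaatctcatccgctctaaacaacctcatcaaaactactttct
Cldn5 (chr11:95718599-95718848, minus strand): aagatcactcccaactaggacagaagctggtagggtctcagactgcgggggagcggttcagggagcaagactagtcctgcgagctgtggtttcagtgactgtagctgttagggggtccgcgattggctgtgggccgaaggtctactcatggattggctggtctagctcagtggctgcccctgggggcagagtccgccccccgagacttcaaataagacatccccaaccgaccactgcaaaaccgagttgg
Egfl7 has 2 start sites in the table, so the 4 members have 5 windows. On both strands, the ETS core was found in 3 of the 5 windows, those of Emcn, Erg and the first site of Egfl7, and in 39.4% of all 33469 windows of the same length. Emcn held 2 matches, at bases -243 to -238 and -162 to -157 from the start. The match of Erg lay at -81 to -76. Egfl7, which also held a match, had a log2 fold change of -0.05 that did not pass the test (adjusted p = 0.45, limma). Whether the matches go with the changes was not tested. The short SOX motif ACAAT was found in 3 of the 5 windows, those of Emcn, Erg and the other site of Egfl7, and in 30.0% of all windows, and the GATA motif AGATAA in Erg alone and in 10.3% of all windows. The Cldn5 window held none of the 3 motifs. Such matches are a description of letters, not of binding, and the deposited values come from an annotation whose build is not given in the sources used here.

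Of the 4 junction and adhesion molecules, Cdh5 (NCBI Gene 307618), the gene of VE-cadherin, had 146, 150 and 144 FPKM with banding and 187, 182 and 188 in sham veins. All 3 BPVB values lay below all sham values. The means were 146 ± 3.1 and 185 ± 3.1 (SD, n = 3 each), with a log2 fold change of -0.34 (95% confidence interval -0.41 to -0.28, adjusted p = 3.3e-05, limma). Pecam1 (NCBI Gene 29583), which encodes the junctional immunoglobulin CD31 used as a general stain for endothelium, was the most abundant member. Its FPKM was 259, 254 and 247 with banding and 286, 284 and 285 in sham veins. The groups did not overlap, and the sham values were closer together than counting alone would give on average (0.234% against 0.646%). The log2 fold change was -0.17 (95% confidence interval -0.23 to -0.11, adjusted p = 0.0012, limma), which is about 11.1% in linear terms. After quantile normalization it was -0.11 (adjusted p = 0.020, limma).

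The tight junction gene Cldn5 (NCBI Gene 65131), encoding claudin-5, had 100, 105 and 101 FPKM with banding and 96.3, 106 and 100 in sham veins. The groups overlapped and the means differed by less than the SD of either group. Its log2 fold change was 0.02 with a 95% confidence interval from -0.07 to 0.11 (adjusted p = 0.74, limma), which leaves out a change the size of that of Cdh5. Esam (NCBI Gene 300519), encoding an immunoglobulin adhesion molecule of endothelial tight junctions and platelets, had 55.4, 53.8 and 57.3 FPKM with banding and 60.2, 60.4 and 56.0 in sham veins. BPVB replicate 3 lay above sham replicate 3, so the groups overlapped. The log2 fold change was -0.08 (95% confidence interval -0.18 to 0.01, adjusted p = 0.17, limma).

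Emcn (NCBI Gene 295490) encodes endomucin, a sialomucin on the luminal surface of venous and capillary endothelium. Its FPKM was 79.2, 89.5 and 83.0 with banding and 121, 121 and 119 in sham veins. The highest BPVB value was well below the lowest sham value. The log2 fold change was -0.52 (95% confidence interval -0.62 to -0.42, adjusted p = 3.6e-05, limma), with means of 83.9 ± 5.2 and 120 ± 0.84 FPKM (SD, n = 3 each). Egfl7 (NCBI Gene 245963) encodes a matrix-bound protein that endothelial cells secrete, and its intron hosts miR-126. Its FPKM was 43.2, 46.3 and 45.9 with banding and 48.1, 47.4 and 44.7 in sham veins. These values overlapped, and the log2 fold change was -0.05 (95% confidence interval -0.15 to 0.05, adjusted p = 0.45, limma).

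Among the transcription factors, Sox18 (NCBI Gene 311723), a SoxF gene required for the development of blood and lymphatic vessels, fell the most of all members. Its FPKM was 42.1, 41.7 and 45.2 with banding and 62.9, 61.5 and 64.9 in sham veins. The gap between the groups was wider than the range within either group. The log2 fold change was -0.55 (95% confidence interval -0.65 to -0.45, adjusted p = 2.3e-05, limma), and 4.79% of all tested genes had a lower value. Sox17 (NCBI Gene 312936), the SoxF gene tied to arterial identity, was the least abundant member. Its FPKM was 14.0, 13.7 and 12.5 with banding and 14.4, 15.9 and 14.4 in sham veins. The groups did not overlap, but the distance between BPVB replicate 1 and sham replicate 3 was small. Its log2 fold change of -0.14 did not pass the test (95% confidence interval -0.30 to 0.01, adjusted p = 0.14, limma).

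Erg (NCBI Gene 170909) encodes the ETS factor of the endothelial lineage. Its FPKM was 26.3, 27.3 and 26.3 with banding and 29.8, 31.5 and 28.6 in sham veins. All BPVB values lay below all sham values. The log2 fold change was -0.17 (95% confidence interval -0.28 to -0.06, adjusted p = 0.029, limma). This call was the least firm of the 5. The adjusted p was 0.077 without BPVB replicate 1, 0.081 without BPVB replicate 3, 0.068 without sham replicate 1, 0.095 without sham replicate 2 and 0.070 with the libraries rescaled to TPM, at log2 fold changes between -0.13 and -0.20 over all 16 alternatives. The other 4 calls, Pecam1, Cdh5, Emcn and Sox18, passed an adjusted p of 0.05 in 16 of 16 alternatives.

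In 6 of 9 members the 3 BPVB values did not overlap the 3 sham values, and all 6 were lower in the BPVB group. Of all tested genes, 45.6% were separated in either direction and 20.5% in this one. The order of the levels shifted with the unequal falls. In the sham group the order by FPKM was Pecam1, Cdh5, Emcn, Cldn5, Sox18, Esam, Egfl7, Erg and Sox17, and no neighbours in that order overlapped. In the BPVB group Cldn5 stood above Emcn, and Sox18 dropped below Esam and Egfl7, with Egfl7 and Sox18 the neighbours whose values overlapped.

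The ratio of 2 members within a library does not depend on a factor that scales the whole library. It thus sets the changes of 2 members side by side free of such a factor. Quantile normalization is not such a factor and can change the ratios. Of the 36 pairs, 23 had ratios that did not overlap between the groups. This share is near the 59.9% found over all pairs of tested genes whose mean FPKM was 10 or more, so the count is not a result about the members. The pairs share genes and are not independent. With 3 rats against 3, an exact permutation test cannot give a p below 0.1, and it gave 0.1 for the separated pairs named here. The largest shift was that of Cldn5 to Sox18, whose ratio was 1.60 ± 0.11 in the sham group and 2.38 ± 0.14 in the BPVB group (SD, n = 3 each). This is a change of 0.58 on the log2 scale (two-sided exact permutation test, p = 0.1). The ratio of Cldn5 to Emcn shifted by 0.54 and that of Egfl7 to Sox18 by 0.50. Within the junction molecules, the ratio of Cdh5 to Cldn5 went from 1.84 ± 0.12 to 1.43 ± 0.019 (SD, n = 3 each), with all BPVB ratios below all sham ratios. Pecam1 and Erg kept nearly the same ratio in FPKM, at 9.53 in the sham group and 9.52 in the BPVB group (exact permutation test, two-sided, p = 1). After quantile normalization their log2 fold changes were -0.11 and -0.17, beside -0.17 for both in the main fit. Emcn and Sox18, which fell the most, also overlapped in their ratio (1.91 in the sham group and 1.96 in the BPVB group, exact permutation test, two-sided, p = 0.9).

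**Figure D2:**
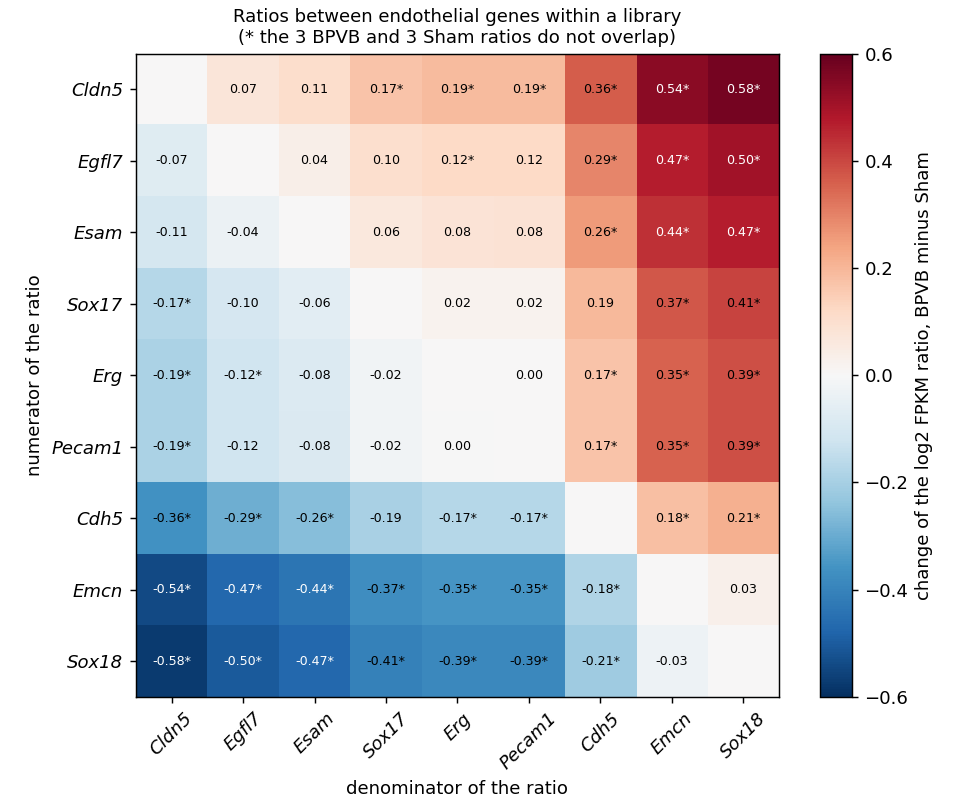
Change of the log2 FPKM ratio (BPVB minus Sham, colour scale) of each row gene to each column gene, from the means of 3 libraries per group, with an asterisk where the BPVB and Sham ratios do not overlap. Cldn5, Egfl7 and Esam gained by 0.26 to 0.58 relative to Cdh5, Emcn and Sox18.

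The deposited annotation gives several members the same terms. Because the members were chosen as endothelial genes, such sharing follows from the choice and is a description only. Pecam1, Emcn, Egfl7, Sox17 and Sox18 carried the term angiogenesis, as did 1.4% of the 13940 tested genes with any term. Pecam1, Cdh5, Cldn5 and Esam carried bicellular tight junction assembly, which 0.301% of these genes carried. Among those 4, Cdh5 and Pecam1 fell, whereas the changes of Cldn5 and Esam did not pass the test. The table assigns Erg to the ETS family and Sox17 and Sox18 to the HMG family of transcription factors.

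A wider list of 25 other pan-endothelial genes was examined beside the members. Of these 25 genes, 17 were lower and 2 were higher with an adjusted p under 0.05 (limma), beside 14.3% lower and 17.2% higher over all tested genes. The shares were 22.8% and 22.2% among genes with a mean FPKM of 10 or more, as all but Fli1 and Tal1 had. Their median log2 fold change was -0.25, and 24 of the 25 had groups that did not overlap, 22 of them lower in the BPVB group (45.6% and 20.5% of all tested genes). The absolute log2 fold change was at most 0.93, so that 0 of the 25 were DEGs. The number lower was 16 with TPM scaling and 20 with limma-voom on the recovered fragments. Both settings also called more of all tested genes, in either direction, than the main fit did. The rise to 20 with limma-voom is therefore not by itself a result about this list.

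The largest fall in this list was that of Sox7, the third SoxF gene. Its FPKM was 15.1, 14.9 and 15.8 with banding and 29.5, 30.3 and 28.9 in sham veins. The groups were far apart, with a log2 fold change of -0.93 (standard error 0.047, adjusted p = 1.5e-06, limma). Within the SoxF genes the ratio of Sox7 to Sox17 went from 1.99 ± 0.074 in the sham group to 1.14 ± 0.10 in the BPVB group (SD, n = 3 each, p = 0.1 in the exact two-sided permutation test). The ratio of Sox18 to Sox17 also separated the groups (4.25 ± 0.34 in the sham group, 3.21 ± 0.35 in the BPVB group, SD, n = 3 each), as did that of Sox7 to Sox18 (0.469 and 0.355). Sox7 and Sox18 fell, and the change of Sox17 did not pass the test.

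Robo4 (table symbol LOC100911068, read through NCBI Gene 100911068), which encodes an endothelial roundabout receptor, had 13.7, 13.1 and 12.5 FPKM with banding and 17.0, 17.0 and 15.99 in sham veins. It fell by 21.4%, with a log2 fold change of -0.34 (standard error 0.058, adjusted p = 0.0024, limma). The row was matched by gene number and was kept apart from the members, whose rule is the symbol.

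Of the receptors in the wider list, Flt1, which encodes VEGF receptor 1, fell by 36.3% (log2 fold change -0.64, standard error 0.042). Kdr, which encodes VEGF receptor 2, had a log2 fold change of -0.08 that did not pass the test (adjusted p = 0.13, limma). The receptor gene Tie1 fell by 0.23 on the log2 scale. The nitric oxide synthase gene Nos3 fell by 0.38 on the log2 scale. Vwf, the gene of von Willebrand factor and the most abundant of the 25, had 379 ± 3.5 FPKM in the BPVB group and 387 ± 1.9 in the sham group (SD, n = 3 each). Its log2 fold change of -0.03 did not pass the test (adjusted p = 0.29, limma), it did with limma-voom (adjusted p = 7.8e-04), and its value turned to 0.04 after quantile normalization. The ETS gene Fli1 had -0.18 and did not pass (adjusted p = 0.12, limma), but did with limma-voom (adjusted p = 0.0015). Rasip1, which acts in the formation of the vascular lumen, fell by 0.40. Clec14a and Adgrl4 were the genes that rose, by 0.26 and 0.22 on the log2 scale. Kdr, Tie1, Nos3, Fli1 and Robo4 were named after their values were seen.

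**Figure D3:**
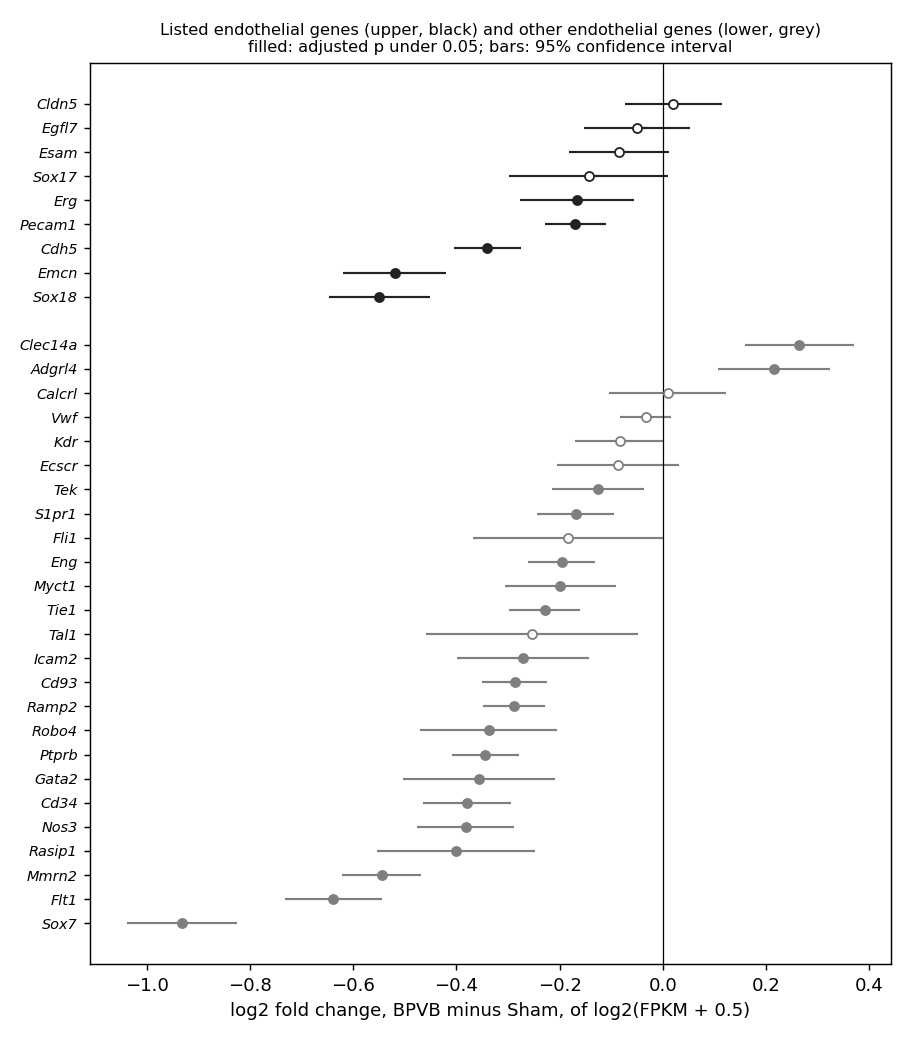
Log2 fold change (horizontal axis, BPVB minus Sham, of log2(FPKM + 0.5)) of the 9 listed endothelial genes in black and 25 other endothelial genes in grey, with 95% confidence intervals and filled points where the adjusted p was under 0.05. Listed genes range from -0.55 (Sox18) to 0.02 (Cldn5), and the others from -0.93 (Sox7) to 0.26 (Clec14a).

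Genes of the junction machinery with wider expression were examined next. Of 12 junction partners, 6 were lower with an adjusted p under 0.05 (limma) and the other 6 did not pass. Of all tested genes 14.3% were lower, and 22.8% of those with a mean FPKM of 10 or more. They had a median log2 fold change of -0.10. The junctional adhesion molecule genes Jam2 (-0.32) and Jam3 (-0.46) and the afadin gene Afdn (-0.34) fell by amounts like that of Cdh5. Ctnnb1, which encodes the β-catenin that binds cadherins, fell by 0.11, a call that was lost with TPM scaling (adjusted p = 0.064, limma) and without sham replicate 3 (0.053). The α-catenin gene Ctnna1 was level (log2 fold change 0.01, adjusted p = 0.89, limma), and the ratio of Cdh5 to Ctnna1 went from 1.49 ± 0.011 to 1.17 ± 0.030 (SD, n = 3 each, exact permutation test, two-sided, p = 0.1). Ptprb, which encodes the phosphatase that binds VE-cadherin, fell with Cdh5, and their ratio was 1.56 in both groups (exact permutation test, two-sided, p = 0.7). Ctnna1 and Ptprb were chosen after their values were seen.

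Markers of single vessel types went in both directions. Of 7 arterial genes, 3 were lower and 1 was higher with an adjusted p under 0.05. For this and the next lists, the shares over all tested genes were 14.3% lower and 17.2% higher. At a mean FPKM of 10 or more they were 22.8% and 22.2%. Counts of 1 gene are near these shares, as are the 2 higher of 8 capillary genes. The Notch ligand gene Dll4 (log2 fold change -0.93), the Notch target Hey1 (-0.47) and Sema3g (-0.25) fell, and the connexin gene Gja4 rose (0.53). Of 5 venous genes, 2 were higher and 1 was lower. The leukocyte adhesion genes Selp (0.79) and Vcam1 (0.61) rose, and Ephb4 (-0.12) fell. The call of Ephb4 was lost when any 1 library was left out (adjusted p from 0.054 to 0.12, limma), and that of Sema3g without BPVB replicate 1 or 2 or sham replicate 1 or 2 (0.086 to 0.11). Of 8 capillary genes, 5 were lower and 2 higher. Cd300lg (-2.72) and Car4 (-1.07, table symbol Ca4) were DEGs, Rgcc and Gpihbp1 fell by 0.48 and 0.39, and Plvap (0.45) and Ednrb (0.32) rose. Of 6 lymphatic genes, 4 were higher and 1 lower. Ccl21 rose from 31.9 ± 2.3 FPKM in sham veins to 139 ± 5.0 with banding (SD, n = 3 each). The lymphatic master regulator Prox1 rose from 0.774 ± 0.062 to 2.15 ± 0.23, Reln rose by 0.58 on the log2 scale (0.96 with limma-voom) and Lyve1 fell by 0.47. Pdpn (2.04) is shared with alveolar type 1 cells. Of the 3 tested endocardial genes, 1 was higher, Tmem100 (0.63), and Npr3 had 0.04.

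Genes of other cells moved with the endothelial changes. All 8 alveolar type 2 genes were higher with an adjusted p under 0.05, with a summed level of 552 to 598 FPKM with banding and 61.5 to 63.0 in sham veins. Of 5 alveolar type 1 genes, 4 were higher and 1, Hopx, was lower, with sums of 137 to 144 and 80.9 to 85.0. Hopx made up most of the sham sums, and without it the sums were 76.4 to 83.1 and 11.3 to 12.3. All 8 macrophage genes were higher (711 to 730 against 250 to 257). Lyz2, which alveolar type 2 cells also express, made up most of these sums, and the other 7 genes summed to 126 to 137 against 86.1 to 93.0. Of 6 fibroblast genes, 4 were higher and 2 lower (6167 to 6221 against 5394 to 5438). Of 7 atrial cardiomyocyte genes, 5 were lower and 2 higher (13530 to 13955 against 18113 to 18470). The most abundant of them, Myl7, had a log2 fold change of -0.59, which became -0.15 and lost its call after quantile normalization (adjusted p = 0.31, limma). Of 7 smooth muscle genes, 4 were lower and 2 higher (5204 to 5255 against 5436 to 5475). Of the 4 falls, Cnn1 lost its call after quantile normalization (adjusted p = 0.22, limma). Tagln lost its call in 8 of 16 alternatives, among them without BPVB replicate 1 or 3 or any 1 of the sham replicates (adjusted p from 0.061 to 0.12). The summed level of the 9 endothelial members was 762 to 782 FPKM with banding and 901 to 910 in sham veins. No marker in these lists was at 0 in all 6 libraries. The part of these cells in the endothelial values was not tested.

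Some members are also expressed by blood cells, Pecam1 by platelets and leukocytes and Esam by platelets. Of the 6 tested platelet genes, 1 was lower, Itga2b (log2 fold change -0.55), and the other 5 did not pass (limma), with sums of 219 to 235 FPKM with banding and 219 to 238 in sham veins. Pf4 made up most of these sums and was level (0.01). Of 7 leukocyte genes, the pan-leukocyte gene Ptprc rose (1.06), and the neutrophil genes S100a8 (-1.45) and S100a9 (-1.20) fell. The other 4 did not pass (limma). The sums were 12.9 to 17.9 with banding and 21.6 to 25.3 in sham veins. S100a8 (mean 12.0 FPKM) and S100a9 (6.2) made up most of the mean sham sum of 23.7. Ptprc went the other way, with means of 5.7 FPKM with banding and 2.5 in sham veins. The part of blood cells in the values of Pecam1 and Esam was not tested.

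**Figure D4:**
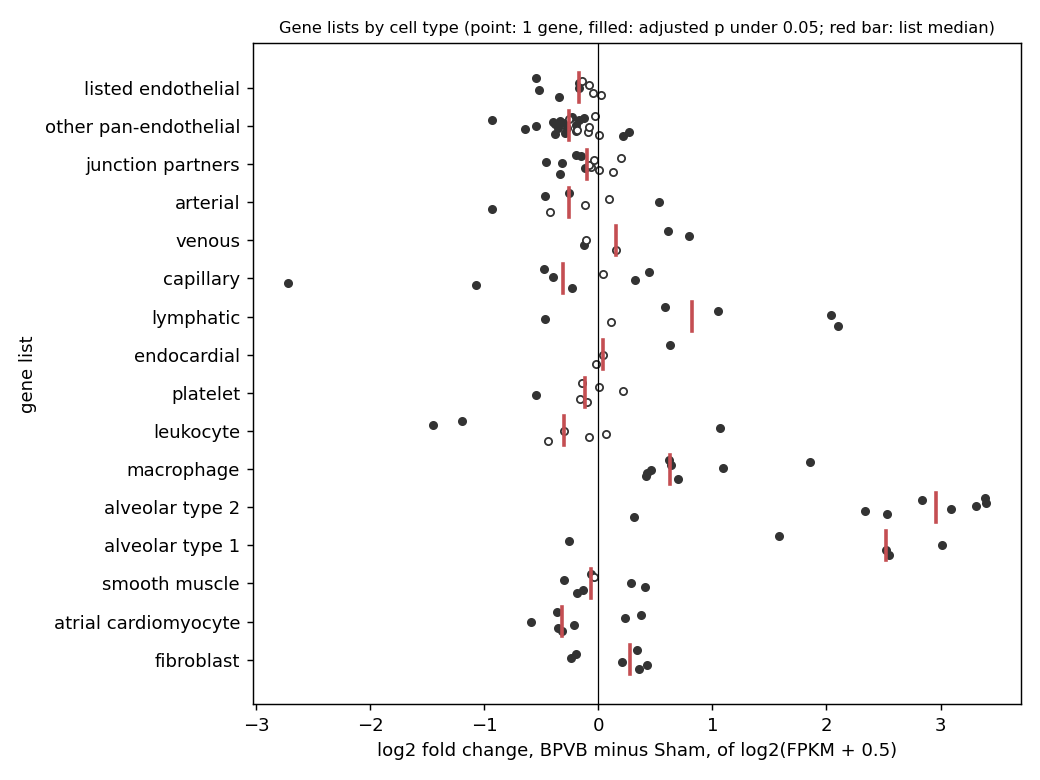
Log2 fold change (horizontal axis, BPVB minus Sham, of log2(FPKM + 0.5)) of each tested gene in the endothelial lists and in lists of other cell types (vertical axis), with filled points where the adjusted p was under 0.05 and a red bar at the list median. The listed endothelial genes have a median of -0.17 and the alveolar type 2 genes one of 2.96.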

How the data were processed

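PVs of 3 BPVB and 3 sham rats were profiled by bulk RNA-seq with 1 library per rat. The authors deposited FPKM per gene, made by fastp trimming, HISAT mapping and HTSeq-count counting according to the paper's methods, whereas the submitters' processing notes name HISAT2 2.0.5, StringTie 1.3.3b, featureCounts 1.5.0-p3 and DESeq2 1.20.0. The build and strand setting are not given in the sources used here. Because FPKM divides by the library total, a shift in very abundant genes moves all others. Columns were matched to samples by letter and replicate number, and 0 per-sample columns were left unused. The table's other columns hold annotation (GO terms, pathways, transcription factor families).

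Groups were compared with limma 3.58.1 in R 4.3.3 (eBayes with trend) on log2(FPKM + 0.5), for all genes averaging 0.1 FPKM or more, which understates the fold change of low genes. P-values measure the spread between these 3 rats per group. Fragments were recovered from whole-number ratios of FPKM between libraries (100.0% of genes). The coefficients of variation of counting alone were taken from them, whereas limma-voom on them also measures the spread between rats. Tested on simulated data with 15150 genes for this comparison, the procedure called 121 of 200 genes changed by 0.25 on the log2 scale, 198 of 200 changed by 0.5 and 200 of 200 changed by 1, with 8 to 10 unchanged genes called. Ratios used exact permutation tests (scipy 1.17.1). Motifs were searched in 250 bases of RefSeq sequence (GRCr8).

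The members and lists were chosen with earlier results of these data known. All members are named, and of the other 15 lists (122 genes, 119 matched by symbol, 2 by NCBI Gene number) up to 4 called rises, up to 4 called falls and the most abundant gene. Genes that this rule names in the lists of other cell types are given mostly as list counts and sums, and a junction gene is not reported here. The alternatives were 2 pseudocounts, 2 filters, 3 scalings, the replicate block, robust eBayes, the DEG rule and leaving out each library. limma-voom was added after the data were seen.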

Additional observations from a re-analysis of the deposited data

How the results depend on the processing

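Over the 16 alternative fits, 8 of the 9 members kept the sign of their log2 fold change in every one, and Cldn5, which no fit called, ranged from -0.01 to 0.06. The number of members lower at an adjusted p under 0.05 (5) was 4 or 5 in each. Requiring an absolute log2 fold change above 1 as well left 0 members lower, 0 other pan-endothelial genes higher, 0 other pan-endothelial genes lower and 496 of all tested genes called, by construction. With the replicate number as a block, 5 members were lower, 17 other pan-endothelial genes were lower and 4539 genes were called, beside 4775 without it. Correlations of deviations between same-numbered libraries were 0.031, 0.025 and 0.019 over 12157 genes, and each library correlated best with its own number. Those between other numbers lay between -0.024 and -0.0015. Whether the numbers pair the rats cannot be told from these small values, for which no reference was computed. The block ended the calls of Sema3g (adjusted p = 0.067) and Ephb4 (0.070) among the genes named. The scalings moved the median of all genes to between -0.01 and 0.06 on the log2 scale. Among the called genes named, the smooth muscle gene Tagln changed sign, from -0.061 to 0.020 after quantile normalization, and the cause was not tested. Cldn5, Vwf, Ctnna1 and Pf4, which were not called and lay near 0, also changed sign in some alternatives. Depth limits the members little, but changes of 0.25 on the log2 scale were recovered only in part in simulated data. Of the 4 members that were not called, the interval of Sox17 alone reaches that size. The simulation changed 200 of 15150 genes, whereas 31.5% of tested genes were called here. It therefore does not give the smallest change that this comparison can call.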

Other observations

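Clec14a and Mmrn2 encode binding partners on endothelial cells, a C-type lectin and the matrix protein multimerin-2, which also binds the lectin Cd93. Clec14a had 53.0, 59.4 and 55.1 FPKM with banding and 45.8, 45.9 and 47.3 in sham veins, and rose by 0.26 on the log2 scale (adjusted p = 0.0026, limma). Mmrn2 had 53.2, 53.3 and 55.7 FPKM with banding and 79.1, 79.8 and 78.5 in sham veins, and fell by 0.55 (adjusted p = 4.8e-06, limma). The ratio of Clec14a to Mmrn2 was 1.03 ± 0.070 in the BPVB group and 0.586 ± 0.015 in the sham group (SD, n = 3 each, p = 0.1 in the exact two-sided permutation test, the least that 3 rats against 3 allow). Cd93 fell by 0.29. The ratio of the VEGF receptor genes Flt1 to Kdr was 0.701 ± 0.024 in the BPVB group and 1.04 ± 0.024 in the sham group (SD, n = 3 each, exact permutation test, two-sided, p = 0.1). Both pairs and Cd93 were chosen after their values were seen.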
